A study of Danio rerio with 58 samples.

Results

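The heme synthesis genes described here are alas1, alas2, alad, uros, urod, cpox, ppox and fech, which encode enzymes of the pathway, and abcb10, which encodes a mitochondrial transporter. They were found by their symbols, and all 9 of 9 were present among the 35117 genes of the deposited count table. They were measured in 58 single cells of the trunk dorsal aorta of zebrafish embryos, each made into 1 Smart-seq2 library, a method that copies the full length of polyadenylated RNA. The cells came from the roof of the vessel at 21 hours post fertilization (hpf, 18 cells), the floor at 21 hpf (18 cells), the roof at 28 hpf (10 cells) and the floor at 28 hpf (12 cells). All 4 groups carried both transgenes, Tg(flk1:eGFP) and Tg(flk1:NLS-Eos), in which the flk1 promoter (the gene is now called kdrl) drives eGFP and a nuclear form of Eos, a protein that light turns from green to red. Single red cells were picked by hand, and the labels call all of them endothelial. The reporter marks what the flk1 promoter has driven, so it is not a test of the cell's present type.

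Heme is made from glycine and succinyl-CoA in a chain of enzymatic steps that starts and ends in the mitochondrion and passes through the cytosol. All cells with mitochondria make some heme for cytochromes, whereas red cell precursors make far more for hemoglobin. Vertebrates have a general and an erythroid form of the first enzyme, encoded by alas1 and alas2, and share the later enzymes between cell types. In zebrafish, mutants of alas2 (sauternes), urod (yquem), ppox (montalcino) and fech (dracula) are known for defects of their blood cells.

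By the share of roof cells with 5 or more reads, the 9 genes fell roughly along a gradient from general to nearly absent. This minimum is harder to reach for genes of low level, so the order is not one of levels. The ratios of floor to roof at 28 hpf had another order, with fech and abcb10 below urod and cpox. The gene alas1 was present in most roof and floor cells, at nearly equal summed levels at 21 hpf. With reads thinned to equal depth, however, it had 5 or more reads in only 5 of 12 floor cells of 28 hpf (8 of 12 without thinning). The genes alad and uros were found in part of the cells of every group. The genes urod and cpox were present in part of the roof cells, at low levels apart from cpox in 1 roof cell of 21 hpf. Their summed levels were far higher in the floor, although cpox had no read in 5 of 12 floor cells of 28 hpf. The genes alas2, ppox, fech and abcb10 had 5 or more reads in at most 2 of 18 roof cells at 21 hpf and at most 1 of 10 at 28 hpf. Cells rich in embryonic globin RNA were 38.9% of the floor cells at 21 hpf and 25% at 28 hpf. With cells weighted equally, they held 80.4% to 93.6% of the floor's level of alas2, cpox, ppox and abcb10 at the 2 stages. The shares of fech (83.7%) and alad (82.2%) were alike at 21 hpf but were 58.4% and 70.85% at 28 hpf. The gene urod was found in every floor cell of 28 hpf.

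**Figure D1:**
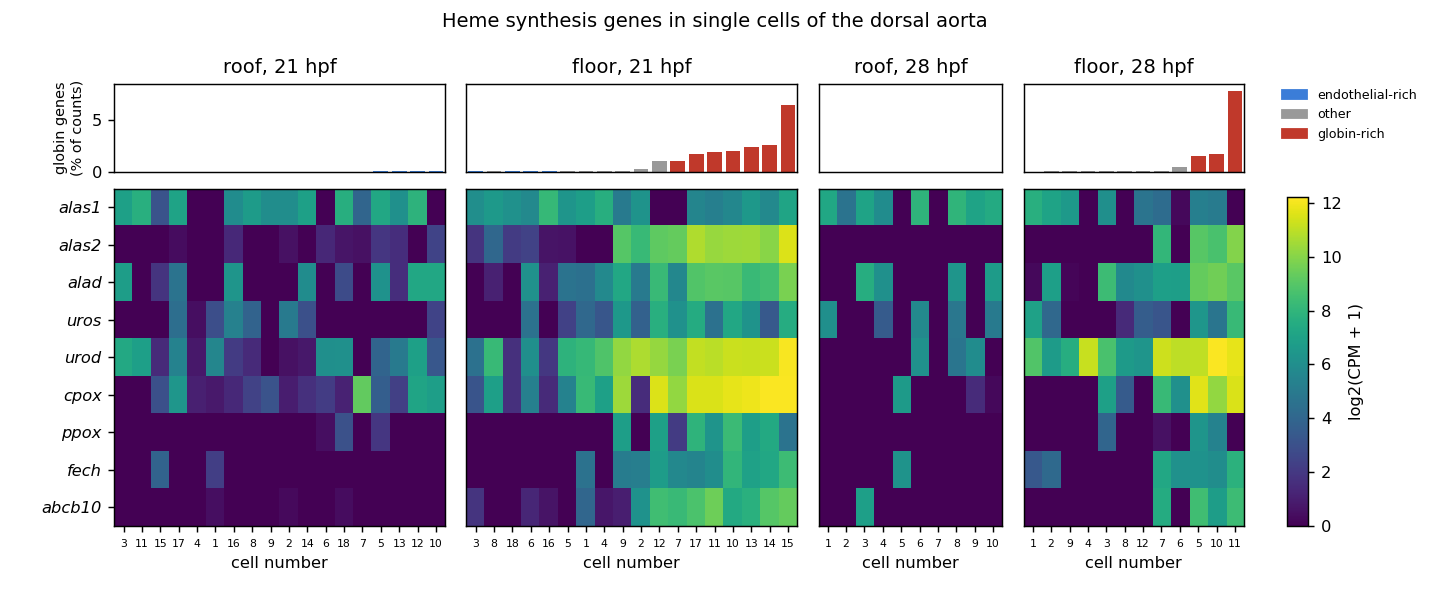
Level of each heme synthesis gene (rows, log2 of CPM plus 1) in each of the 58 cells (columns, ordered within a group by the share of globin counts, which is drawn as bars above in percent). The globin-rich floor cells (red bars) are brighter than the roof cells for most genes, with ppox at 0 in floor cell 11 of 28 hpf, and alas1 shows in all 4 groups.

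Total counts per cell ranged from 129849 to 4693992 in the roof and 216581 to 4227288 in the floor at 21 hpf, and at 28 hpf from 3630613 to 5574794 (roof) and 4339995 to 8254178 (floor). Each cell was therefore thinned to 200000 reads before the reads of a group were summed, and a roof cell of 21 hpf with fewer reads was not used in the sums. Group levels are given in CPM (counts scaled to a total of 1000000) of these sums, and levels of single cells in CPM of all their counts. The labels name no embryos. Every group was therefore taken as a single sample, without a p-value. Intervals of levels and ratios are 95% intervals for the counting of reads. They cover neither the spread between cells nor that between embryos, and amplified reads without molecular tags are not independent molecules. A limit given for a share of cells covers the counting of cells only. It treats cells as independent, although they may share embryos. Reads were not divided by transcript length, so levels are compared between cells and groups, never between genes.

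The endothelial label was checked with 18 pan-endothelial genes. Their summed share was 0.472% to 5.24% of the counts of a roof cell at 21 hpf and 1.41% to 2.62% at 28 hpf. In floor cells it was 0.00627% to 3.54% at 21 hpf and 0.0127% to 0.382% at 28 hpf, and kdrl itself had no read in 1 floor cell of 21 hpf and 2 of 28 hpf. Many floor cells thus went against their label. To read the heme genes against this mixture, cells were divided by 2 sums that hold no heme gene. Cells with 1% or more globin counts are called globin-rich (7 floor cells of 21 hpf and 3 of 28 hpf, no roof cell). The remaining cells with 0.5% or more pan-endothelial counts are called endothelial-rich (17 of 18 and 10 of 10 roof cells, and 4 floor cells of 21 hpf). The rest are called other cells (1 roof cell of 21 hpf, and 7 and 9 floor cells of 21 and 28 hpf). These are ranges of a score and not cell types. For each sum, 2 cells lay within 1.5 times its limit, among them a floor cell of 21 hpf with 0.976% globin that counts as other. Myeloid genes also moved with the groups, with shares of 0% to 0.158% in roof cells and 0% to 0.354% in floor cells at 21 hpf, and 0% to 0.0396% and 0.0101% to 0.264% at 28 hpf. Of the 9 genes of that list, 2 had no read in the floor at 21 hpf (mpeg1.1 and marco) and 4 at 28 hpf (also lyz and mfap4). Muscle genes made up 6.49% of the counts of floor cell 6 of 28 hpf and at most 0.0273% in every roof cell. The part of these genes' source cells in the results was not tested.

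At 21 hpf, 8 of the 9 genes were higher in the floor by 2-fold or more, 0 were lower and alas1 alone lay within 2-fold. Of the 12955 genes tested, 32.7% were higher in the floor by 2-fold or more and 25.5% were lower. The median log2 ratio was 4.81 over the 9 genes and 0.15 over all genes tested. At 28 hpf, 8 genes were higher and alas1 was lower, against 35% higher and 35.6% lower among 11194 genes tested, with medians of 3.01 and 0.06. In both comparisons the share of the heme genes that was higher therefore exceeded that of all genes.

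**Figure D2:**
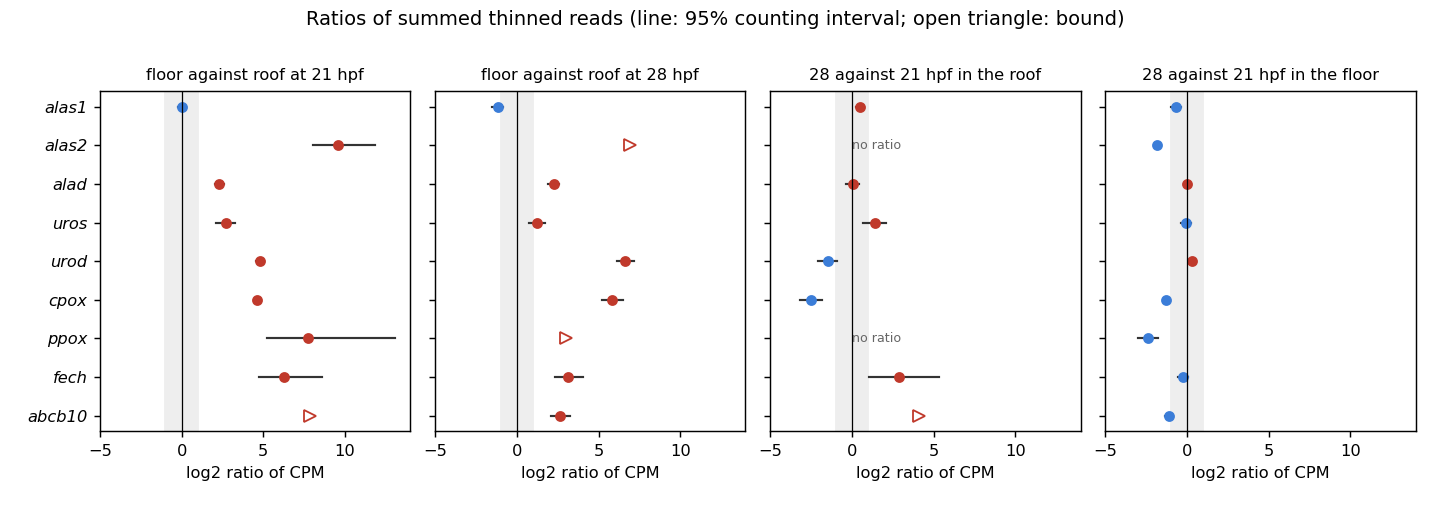
Log2 ratio of group levels for each gene in the 4 comparisons, with points for ratios, lines for their 95% counting intervals and open triangles for bounds where 1 group had no read. In the floor against the roof, every gene but alas1 lies to the right of the grey band of 2-fold at both stages, whereas between stages genes lie on both sides in the roof, and none lies to the right of the band in the floor.

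The pathway opens with 5-aminolevulinate synthase, which sets the rate of heme synthesis and has a general and an erythroid form. The general form, alas1 (ENSDARG00000021059), ranged per cell from 0 through a median of 65.9 to 232 CPM in the roof at 21 hpf and from 0 through 67.7 to 289 CPM in the floor. At 28 hpf it ranged from 0 through 134.6 to 255 CPM in the roof and from 0 through 28.9 to 203 CPM in the floor. Roof and floor cells overlapped over nearly the whole range at both stages. At 21 hpf the summed levels were 81.2 CPM in the roof and 80.6 CPM in the floor, a ratio of 1.01-fold with an interval of 0.85 to 1.19 that excludes a 2-fold difference in these reads. At 28 hpf alas1 was 113 CPM in the roof and 50.4 CPM in the floor, lower in the floor by 2.24-fold (1.79 to 2.82). That ratio was 1.37-fold without the 6 floor cells whose labels carry the code M12, 5 in the title and 1 in the description alone. It was 1.87-fold without the globin-rich cells, and it was also below 2-fold when roof cell 6 or 8 was left out.

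The erythroid form, alas2 (ENSDARG00000038643), had a different pattern. In the roof it was 0 to 4.51 CPM per cell at 21 hpf, with a median of 0.156, and 0 in all 10 cells at 28 hpf. The 95% Clopper-Pearson upper limit for the share of such cells with 5 or more alas2 reads was 30.85%. In the floor alas2 ranged from 0 through 403 to 3053 CPM at 21 hpf and from 0 through 0 to 983 CPM at 28 hpf. Its floor cells fell into low and high values with a gap between: at 21 hpf 8 cells had 15.9 CPM or less and 10 cells had 299 CPM or more. At 28 hpf 8 of 12 floor cells had no read and the other cells had 269 to 983 CPM. The 7 globin-rich cells of 21 hpf spanned 627 to 3053 CPM and the highest other cell had 582 CPM, so these ranges did not overlap. They did not overlap at 28 hpf either, with 409 to 983 CPM in the 3 globin-rich cells and at most 269 CPM elsewhere. This depended on the cut of 1% globin. With a cut of 0.1%, globin-rich cells started at 299 CPM and other floor cells reached 507 CPM at 21 hpf. At 28 hpf they started at 0 CPM and other floor cells reached 269 CPM, so the ranges overlapped at both stages. With a cut of 5%, which left 1 globin-rich cell per stage, they did not overlap. The ratio of the summed levels of floor to roof was 755-fold (258 to 3662) at 21 hpf, from 3 roof reads, and alas2 was at least 124-fold higher in the floor at 28 hpf, where the roof sum had no read. The bound of 28 hpf was 71.0-fold without the floor cells of code M12.

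The next enzyme, alad (ENSDARG00000100372), joins pairs of aminolevulinate molecules into porphobilinogen in the cytosol. It ranged from 0 through 2.27 to 160 CPM in roof cells and from 0 through 61.2 to 845 CPM in floor cells at 21 hpf, and from 0 through 0 to 193 CPM and 0 through 113.7 to 744 CPM at 28 hpf. The groups overlapped, but the highest cells were floor cells at both stages. With thinned reads, 7 of 17 and 4 of 10 roof cells and 11 of 18 and 9 of 12 floor cells had 5 or more alad reads at 21 and 28 hpf. Its summed level was higher in the floor by 4.94-fold (4.13 to 5.94) at 21 hpf and by 4.81-fold (3.83 to 6.10) at 28 hpf. Without roof cell 3 the ratio of 28 hpf was 7.31-fold. Without the globin-rich cells the ratios were 1.45-fold and 1.74-fold, so alad did not reach 2-fold in the remaining cells.

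Hydroxymethylbilane synthase follows alad and is encoded in zebrafish by hmbsa and hmbsb. They are not among the 9 genes, and their values are given here to complete the chain. They were 44.6-fold (32.1 to 63.9) and 124-fold (67.1 to 259) higher in the floor at 21 hpf, and 28.7-fold (18.4 to 47.3) and 68.9-fold (38.3 to 138) higher at 28 hpf. In the globin-rich cells hmbsb had 266 to 1980 CPM at 21 hpf and 388 to 2222 CPM at 28 hpf, against at most 59.2 CPM in any roof cell. Single cells weighed on these ratios. Roof cell 17 of 21 hpf and roof cell 8 of 28 hpf held 97.5% and 100% of the roof's hmbsb level. Floor cell 5 of 28 hpf held 68.4% of the floor's hmbsa level. Reads that match both hmbsa and hmbsb could be split between them by the counting.

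The product of hydroxymethylbilane synthase is closed into a ring by uroporphyrinogen III synthase, encoded by uros (ENSDARG00000027491). It ranged from 0 through 0 to 40.1 CPM in roof cells and from 0 through 19.4 to 203 CPM in floor cells at 21 hpf. At 28 hpf it ranged from 0 through 5.23 to 66.4 CPM in the roof and from 0 through 9.88 to 296.5 CPM in the floor, where most values lay within the range of the roof. The floor was 6.42-fold (4.36 to 9.76) higher at 21 hpf and 2.36-fold (1.67 to 3.37) higher at 28 hpf. At 28 hpf 52% of the per-cell level in the floor came from cell 11, and without that cell the ratio was 1.22-fold, and 1.85-fold without the cells of code M12. Without the 3 globin-rich cells it turned to 1.38-fold lower in the floor, whereas at 21 hpf it was still 3.81-fold higher without the globin-rich cells.

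Uroporphyrinogen decarboxylase, encoded by urod (ENSDARG00000006818), makes the last intermediate of the cytosolic part of the pathway. In the roof it ranged from 0 through 11.7 to 163 CPM at 21 hpf and from 0 through 0 to 71.0 CPM at 28 hpf. In the floor it ranged from 2.27 through 1039.5 to 4318 CPM at 21 hpf and from 82.2 through 1264 to 4469 CPM at 28 hpf. At 28 hpf every floor cell was above every roof cell. At 21 hpf the same held for the 14 floor cells that were not endothelial-rich, with 237 CPM or more, whereas the 4 endothelial-rich floor cells had 2.27 to 65.7 CPM and lay within the roof's range. The summed level was 28.0-fold (23.7 to 33.2) higher in the floor at 21 hpf and 98.4-fold (69.2 to 145) higher at 28 hpf, and without roof cell 9 the latter was 229-fold. Without the globin-rich cells urod was 57.7-fold higher at 28 hpf, and at 21 hpf its log2 ratio was 3.53 in place of 4.81.

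Coproporphyrinogen oxidase, encoded by cpox (ENSDARG00000062025), carries the pathway back to the mitochondrion, where it makes protoporphyrinogen IX. It ranged from 0 through 3.75 to 607 CPM in roof cells and from 1.73 through 736 to 4447 CPM in floor cells at 21 hpf. At 28 hpf it ranged from 0 through 0 to 98.1 CPM in the roof and from 0 through 39.5 to 3169 CPM in the floor. All 10 globin-rich cells had 1178 CPM or more, above every roof cell. At 21 hpf 2 other floor cells also lay above that level, the highest at 3015 CPM, and at 28 hpf the remaining floor cells had at most 297 CPM. The floor was 24.2-fold (21.2 to 27.8) higher at 21 hpf and 56.0-fold (37.2 to 88.6) higher at 28 hpf. Single roof cells weighed on both ratios. Roof cell 7 of 21 hpf, the roof cell with the lowest pan-endothelial share, held 61.5% of the roof's cpox level, and without it the ratio was 72-fold. Roof cell 5 of 28 hpf held 98%, and without it the ratio was 1160-fold. That value rests on very few of the roof's 23 thinned cpox reads of 28 hpf. Without floor cell 5 of 28 hpf the log2 ratio was 5.18 in place of 5.81.

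Protoporphyrinogen oxidase, encoded by ppox (ENSDARG00000102167), forms protoporphyrin IX and was sparse throughout. It had 0 to 7.16 CPM in roof cells of 21 hpf, with no read in 15 of 18, and no read in any of the 10 roof cells of 28 hpf. In the floor it ranged from 0 through 1.71 to 320 CPM at 21 hpf and from 0 through 0 to 81.8 CPM at 28 hpf. All 7 globin-rich cells of 21 hpf had ppox reads, but globin-rich cell 11 of 28 hpf had none, although it had the highest globin share of all cells. At 21 hpf the ratio of floor to roof was 212.5-fold with an interval of 37.8 to 8430.1, from 1 thinned roof read in cell 18, without which it was at least 66.7-fold. At 28 hpf ppox was at least 8.06-fold higher, and at least 3.34-fold without floor cell 5, which held 59.4% of the floor's level. With DESeq2 size factors that bound came out at 1.12-fold. It is not comparable, because levels under those factors were on another scale than CPM while the roof stayed set at 1.5 CPM. With TMM factors ppox was at least 9.32-fold higher.

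Ferrochelatase, encoded by fech (ENSDARG00000003462), inserts iron into protoporphyrin and completes heme. It was read in 2 of 18 roof cells at 21 hpf, at up to 13.6 CPM, and in 1 of 10 at 28 hpf, at 75.7 CPM. In the floor it ranged from 0 through 35.4 to 326.5 CPM at 21 hpf and from 0 through 13.1 to 227 CPM at 28 hpf. Every globin-rich cell had fech, with 44.9 CPM or more at 21 hpf and 61.9 CPM or more at 28 hpf, and none of the 4 endothelial-rich floor cells had a read. The floor was 77.4-fold (26.2 to 378) higher at 21 hpf, from 3 roof reads, and 8.78-fold (4.97 to 16.9) higher at 28 hpf. All fech reads of the roof at 28 hpf came from cell 5. Without it the roof had no read, and fech was at least 34.3-fold higher in the floor. Without the floor cells of code M12 the ratio was 3.84-fold, and without floor cell 11 the log2 ratio was 2.54 in place of 3.13.

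The transporter gene abcb10 (ENSDARG00000061591) encodes a protein of the inner mitochondrial membrane that is needed for hemoglobin production in mouse erythroid cells. In the roof it had at most 0.383 CPM in any cell of 21 hpf, and at 28 hpf it was read in cell 3 alone, at 118.6 CPM. In the floor it ranged from 0 through 44.1 to 731 CPM at 21 hpf and from 0 through 0 to 356 CPM at 28 hpf. The globin-rich cells had 169 to 731 CPM at 21 hpf and 109.6 to 356 CPM at 28 hpf. Of the other floor cells, 1 at each stage reached the lowest of these values, cell 12 of 21 hpf with 346 CPM and cell 7 of 28 hpf with 179 CPM. The floor was at least 230.1-fold higher at 21 hpf. It was 6.17-fold (4.20 to 9.36) higher at 28 hpf. Without roof cell 3, which left no roof read, it was at least 55.3-fold higher, and without the floor cells of code M12 it was 3.43-fold higher.

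**Figure D3:**
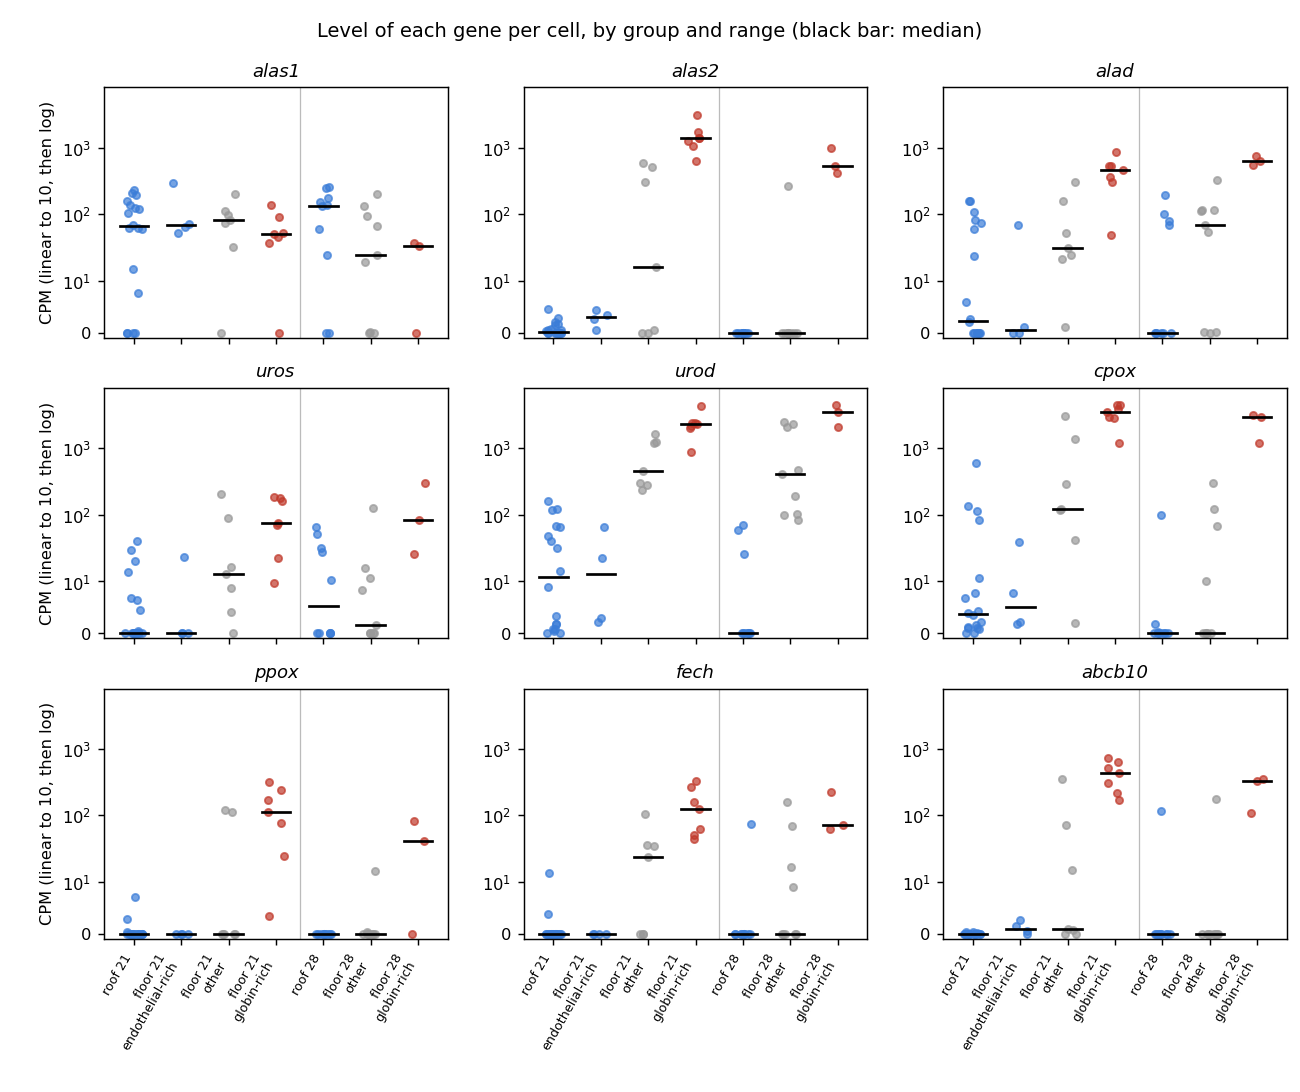
Level of each gene per cell in CPM (axis linear up to 10 and logarithmic above), with 1 point per cell, grouped by region, stage and range, all roof cells of a stage together, and a black bar at the median. The globin-rich cells have the highest median of each stage for 8 of the genes, while alas1 has its highest medians outside them.

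The globin-rich cells were 19.4% of all cells at 21 hpf and 13.6% at 28 hpf. With each cell given equal weight, they held 88.0% and 87.7% of the alas2 level, 87.1% and 72.6% of that of abcb10, and 79.4% and 92.5% of that of cpox at the 2 stages. For ppox the shares were 79.7% and 89.1%, for fech 82.5% and 52.1%, and for urod 72.7% and 54.6%. For alad the shares were 69.7% and 60.9%, and for uros 59.4% and 53.6%, the lowest but for alas1 at 21 hpf. At 28 hpf the share of uros lay between those of fech and urod, and that of alad lay above both. For alas1 the shares were 13.6% and 3.91%, below the share of cells. Without the globin-rich cells, the floor of 21 hpf was higher than the roof by 148-fold for alas2, 64.9-fold for ppox, at least 46.9-fold for abcb10, 21.1-fold for fech and 7.11-fold for cpox. At 28 hpf it was higher by at least 22.9-fold for alas2, 4.69-fold for fech, 4.53-fold for cpox and 1.81-fold for abcb10, and by at least 1.85-fold for ppox. The floor cells of 21 hpf left in these sums included cell 12, with 0.976% globin. It had the highest alas2 (582 CPM) and abcb10 (346 CPM) of those left. For several genes the sums without globin-rich cells rested on few cells. At 21 hpf ppox had no read in 5 of 7 other floor cells and in all 4 endothelial-rich floor cells. The endothelial-rich floor cells had at most 4.38 CPM of alas2, within the range of the roof. At 28 hpf alas2 and abcb10 each had no read in 8 of 9 other floor cells. By the shares above alas2 and abcb10 were the most restricted to globin-rich cells at 21 hpf, with 88.0% and 87.1%. The order of these 2 genes was not settled, because cell 12 lay just under the globin cut. With a cut of 0.1%, floor cells of 21 hpf below it reached 507 CPM of alas2 but 15.2 CPM of abcb10. At 28 hpf cpox had the highest share, 92.5%, from only 3 globin-rich cells. By presence alas2 was more restricted there, with no read in 8 of 9 other floor cells and in all 10 roof cells. In the same ranges cpox had no read in 5 and 7 cells. By its shares alas1 was the least restricted at both stages.

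The number of heme synthesis genes found together in a cell followed the same order. With 5 or more reads as the minimum, all 9 genes were found in 8 cells, each of them globin-rich, 6 of 7 at 21 hpf and 2 of 3 at 28 hpf. Roof cells had 0 to 5 of the genes at 21 hpf and 0 to 4 at 28 hpf, and the endothelial-rich floor cells had 1 to 5. Other floor cells had 4 to 8 at 21 hpf and 1 to 8 at 28 hpf. After thinning to equal depth, all 9 genes were found in 4 cells, the globin-rich cells had 6 to 9, the roof cells 0 to 5 and the other floor cells 3 to 8 and 1 to 6 at the 2 stages. At equal depth the median cell had reads in 6584 genes in the globin-rich and 6096 in the other floor cells of 21 hpf, and 4635 in the endothelial-rich roof cells. At 28 hpf the medians were 5239 genes in the globin-rich and 3387 in the other floor cells and 4622.5 in the roof cells. The part of this difference in the number of heme genes was not tested.

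**Figure D4:**
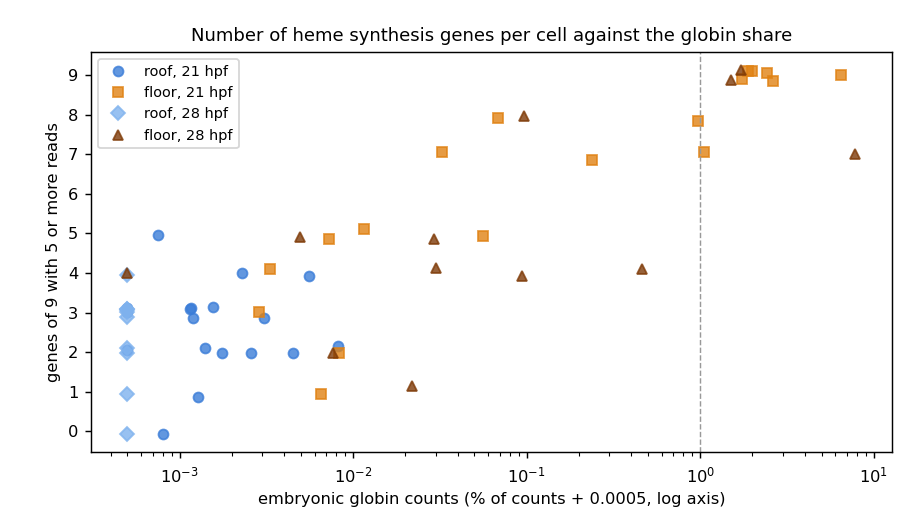
Number of the 9 genes with 5 or more reads in each cell against the share of embryonic globin counts (percent plus 0.0005, log axis, points shifted slightly up or down to separate them, dashed line at 1%). Cells right of the line have 7 to 9 genes, roof cells have 5 or fewer, and 3 floor cells with under 0.1% globin have 7 or 8.

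A few floor cells had much of the pathway with little globin. Floor cell 9 of 21 hpf had 0.0674% globin, yet it had 507 CPM of alas2, 1381 CPM of cpox and 1209 CPM of urod, with 8 of the genes at 5 or more reads. It had 1.02 CPM of abcb10 and 113 CPM of gata1a, which encodes the main transcription factor of red cell precursors. Floor cell 7 of 28 hpf had 0.0958% globin with 269 CPM of alas2, 2497 CPM of urod, 161 CPM of fech, 179 CPM of abcb10 and 1791 CPM of gata1a, the highest gata1a level of any floor cell of 28 hpf. In contrast, floor cell 2 of 21 hpf had 299 CPM of alas2 and 1658.5 CPM of urod but 1.97 CPM of cpox and no gata1a read. In the reads of these cells the steps were therefore not in fixed proportion. Low values such as 1.97 CPM rest on very few reads, and the part of RNA lost or unevenly amplified in a library was not tested.

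The gene urod was also found without alas2. Floor cells 4 and 6 of 28 hpf had 2297 and 2053 CPM of urod, within or just under the range of the globin-rich cells of that stage (2105 to 4469 CPM), and no alas2 read. In cell 4 urod was the only one of the 9 genes with 5 or more reads. Cell 6 also had 111.8 CPM of alad, 70.2 CPM of fech and 68.7 CPM of cpox, and it is the cell with 6.49% muscle counts and had 0.46% globin. In all, 8 of the 9 other floor cells of 28 hpf had urod at 82.2 CPM or more with no alas2 read.

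Over the 57 thinned cells, Spearman correlations with the globin sum were 0.78 for urod, 0.74 for cpox and 0.72 for alas2, 0.61 to 0.68 for alad, ppox, fech and abcb10, 0.37 for uros and -0.30 for alas1. These values describe cells that share the difference between roof and floor, so they were also taken within the floor. In the 18 floor cells of 21 hpf they were 0.93 for fech and urod, 0.79 to 0.88 for alas2, alad, cpox, ppox and abcb10, 0.66 for uros and -0.18 for alas1. In the 12 floor cells of 28 hpf they were 0.85 for cpox, 0.80 for alas2, 0.77 for abcb10, 0.71 for alad, 0.68 for urod, 0.665 for fech, 0.40 for ppox and uros, and -0.57 for alas1. Cells within a group may share embryos, and zero counts in many cells set part of each value.

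The genes whose counts were most like alas2 over the 57 cells, among 7201 genes found in at least 10 cells, were nt5c2l1 (rho 0.86), nmt1b (0.86), tfr1a (0.84), hbae3 (0.84), lrrc15 (0.83), epb41b (0.83), epor (0.82) and gata1a (0.82). Of these, tfr1a encodes a transferrin receptor, hbae3 an embryonic alpha globin, epb41b a membrane skeleton protein and epor the erythropoietin receptor. The nearest genes to abcb10 were epb41b (0.89), epor (0.88) and gata1a (0.87). Those of fech were gata1a (0.85), hbbe1.3 (0.83) and epor (0.81), and those of cpox were gata1a (0.76), nmt1b (0.76) and hdr (0.75). For urod they were taok3a (0.84), txn (0.82) and si:dkey-261j4.3 (0.81), none of which was among those named here for the other heme genes. For ppox they were si:dkey-25o16.2 (0.88), nt5c2l1 (0.81) and nmt1b (0.79). For alad they were hmbsb (0.70), cers1 (0.69) and rap1gap2a (0.68), and for uros nipa2 (0.66), nt5c2l1 (0.64) and rap1gap2a (0.63). The nearest genes to alas1, rasa3 (0.53), tcf12 (0.52) and dusp8b (0.52), were the least alike. These ranks pool roof and floor cells and were not taken within the floor. Of the 57 cells, 15 had 5 or more reads of alas2, 17 of fech, 14 of abcb10 and 10 of ppox. Shared low counts and the difference between roof and floor therefore set part of each value.

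Between stages in the floor, 0 of the 9 genes were higher at 28 hpf by 2-fold or more and 4 were lower, against 16.7% higher and 42% lower among 12258 genes tested. The share that was lower was near that of all genes. The genes past 2-fold were ppox, which was 62.5 CPM at 21 hpf and 12.1 CPM at 28 hpf and so lower by 5.17-fold (3.50 to 7.90), alas2, lower by 3.59-fold (3.24 to 3.98) from 666 to 185 CPM, cpox, lower by 2.41-fold (2.28 to 2.55) from 1552.5 to 644 CPM, and abcb10, lower by 2.20-fold (1.89 to 2.56) from 203 to 92.5 CPM. The genes alad (211 and 212 CPM), uros (56.7 and 54.2 CPM), fech (68.3 and 57.1 CPM), urod (1209.7 and 1525 CPM) and alas1 (80.6 and 50.4 CPM) lay within 2-fold. Single floor cells moved some ratios. Without cell 5 of 28 hpf, cpox was lower by 3.73-fold and ppox by 12.5-fold, and without cell 11, uros was lower by 2.01-fold and fech by 1.82-fold. Without cell 1 of 28 hpf, alas1 was lower by 2.27-fold, and without cell 11 or cell 15 of 21 hpf abcb10 was within 2-fold (log2 ratio -0.84 without cell 11). Without the 6 floor cells of code M12, alas2 was 6.23-fold, abcb10 3.92-fold, ppox 3.27-fold and fech 2.73-fold lower at 28 hpf, and alas1 was 1.02-fold higher. Globin-rich cells were 38.9% of the floor cells at 21 hpf and 25% at 28 hpf. Within them alas2 had a median of 1372 CPM at 21 hpf and 522 CPM at 28 hpf with overlapping ranges, cpox had 3469 and 2940.5 CPM, and urod had 2297 and 3479 CPM. Without the globin-rich cells, cpox was 8.69-fold, ppox 6.87-fold, alas2 3.78-fold, uros 2.01-fold, alas1 1.56-fold and abcb10 1.52-fold lower at 28 hpf, while urod was 1.79-fold, fech 1.64-fold and alad 1.24-fold higher.

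Between stages in the roof, 7 of the 9 genes had enough reads to be tested, and 3 were higher and 2 lower at 28 hpf by 2-fold or more, against 22.5% higher and 35% lower among 11653 genes tested. No ratio is given for alas2 and ppox, which were at or under 3 reads in both sums. The gene uros was 8.82 CPM at 21 hpf and 23 CPM at 28 hpf, a ratio of 2.61-fold (1.61 to 4.28). When roof cell 1 of 28 hpf was left out, it was 1.83-fold. The genes fech, higher by 7.37-fold (2.02 to 40.3), and abcb10, at least 17-fold higher, owed all their reads of 28 hpf to 1 cell each. The gene urod went from 43.2 to 15.5 CPM, a ratio 2.79-fold (1.88 to 4.25) lower, and 6.50-fold lower when roof cell 9 of 28 hpf was left out. The gene cpox was 5.58-fold (3.62 to 8.98) lower, 115.4-fold lower without roof cell 5 of 28 hpf and less than 2-fold lower (log2 ratio -0.91) without roof cell 7 of 21 hpf. The value of 115.4-fold rests on very few reads of 28 hpf. The gene alas1 was 1.39-fold (1.16 to 1.67) and alad 1.03-fold (0.78 to 1.35) higher, and alad was 1.47-fold lower without roof cell 3 of 28 hpf. The 4 comparisons share groups with each other and are not independent.

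Of 52 other genes listed for heme and iron handling, 49 were in the table. At 21 hpf 32 of the 47 tested were higher in the floor by 2-fold or more and 4 were lower, with a median log2 ratio of 2.26, beside 32.7% higher and 25.5% lower among all genes tested. At 28 hpf 24 of 40 were higher and 7 lower, with a median of 1.61, beside 35% and 35.6%. The largest ratios at 21 hpf beside hmbsb were of the biliverdin reductase gene blvrb, with 360 CPM in the floor and 2 reads in the roof (interval of 169 to 5063), the transferrin receptor gene tfr1a, with 180 CPM and 1 roof read (109.5 to 24209.5), and slc25a37, which encodes mitoferrin 1, the iron importer of erythroid mitochondria, with 61.4 CPM and 1 roof read (37.1 to 8281). At 28 hpf tfr1b was at least 70.8-fold and tfr1a at least 51.1-fold higher, and slc25a37 was 29.7-fold (12.5 to 92.5) higher. All slc25a37 reads of the roof at 28 hpf came from cell 5, and floor cell 5 held 68.9% of its floor level. For tfr1a, floor cell 7 of 28 hpf held 52.6% of the floor's level, and 7 of 12 floor cells had no read. In the opposite direction, the iron exporter gene slc40a1 was 5.07-fold (4.06 to 6.40) lower in the floor at 21 hpf and 75.2-fold (34.2 to 206) lower at 28 hpf. The endothelial-rich cells of 21 hpf were alike, with slc40a1 medians of 87.4 CPM in the floor and 86.5 CPM in the roof. In the other and the globin-rich floor cells of 21 hpf its median was 0. The gene pgrmc1, whose protein binds heme, was 3.08-fold (2.64 to 3.60) and 3.62-fold (2.92 to 4.52) lower.

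Between stages, 4 of the 47 other genes tested in the floor were higher at 28 hpf and 19 lower, and in the roof 7 of 35 were higher and 8 lower. The shares were 8.51% and 40.4% in the floor, against 16.7% and 42% of all genes tested, and 20% and 22.9% in the roof, against 22.5% and 35%, so those lower were near or below the shares of all genes. The largest difference in the floor was that of eif2ak1, which encodes a kinase that is switched on when heme is scarce. It had 154 CPM at 21 hpf and 3.75 CPM at 28 hpf, lower by 41.0-fold (21.4 to 90.1). The gene tmem14ca, whose mammalian counterpart is needed for porphyrin import into mitochondria, was higher at 28 hpf in both regions, by 2.85-fold (2.27 to 3.59) in the floor and 18.1-fold (8.76 to 43.2) in the roof. The mitochondrial carrier gene slc25a39 was lower at 28 hpf in both, by 3.62-fold (2.99 to 4.41) and 4.81-fold (2.57 to 9.98). In the roof of 28 hpf, cell 6 held 81% of the slc25a39 level.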

How the data were processed

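The authors deposited raw read counts per gene for each of the 58 cells in 1 table. Trim Galore, STAR and the build GRCz11 (danRer11) are named in the submitters' processing notes. Not given in the sources used here are their versions, the counting tool, the annotation and whether strand was used, so reads of a gene and an antisense or overlapping gene could not be told apart. Symbols came from the deposited row names. The 9 genes, the lists and the comparisons were chosen with earlier results of these data known. In the list of other heme genes, the older symbols atpif1a, atpif1b and fdx1l were used after the table was seen. The listed iscua, hscb and hmox1b matched no symbol and were not analysed here, as were hbae1.1 and hbae1.2 of the globin list. Of entries with the same symbol, that with most reads kept it.

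Counts were thinned without replacement to 200000 reads per cell (seed 1) and summed by group. A ratio compares the summed CPM of 2 groups. A group with no read was set at 3 reads (0.882, 0.833, 1.5 and 1.25 CPM in the roof and floor of 21 hpf and the roof and floor of 28 hpf), and the ratio was written as at least that value, which leaves out the counting error of the other group. A gene was tested in a comparison with 10 or more reads over both groups and counted as higher or lower at 2-fold. Intervals were exact Poisson (levels), exact conditional binomial (ratios) and Clopper-Pearson (shares). With each group 1 sample, no p-value was made. A gene was found in a cell at 5 or more reads. All 9 genes are named, and the other heme genes by largest ratio at 20 or more CPM and the most alike genes by rank (8 for alas2 and 3 for each other gene). The steps were tested on simulated data. No 2 cells had identical counts. Alternatives used other scalings, among them TMM factors of edgeR 4.0.16 and size factors of DESeq2 1.42.0, other depths, minimums and cuts, and leaving out cells. Python 3.11.15 was used with numpy 2.4.6, pandas 2.3.3 and scipy 1.17.1.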

Additional observations from a re-analysis of the deposited data

How the results depend on the processing

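Of 419 log2 ratios of the 9 genes under settings other than leaving out 1 cell, 336 stayed within their counting interval, 82 moved out of it, and 1 that had been past 2-fold turned its sign. That was uros in the floor against the roof at 28 hpf, with a log2 ratio of -0.46 without globin-rich cells. The count of genes higher in that comparison was 4 without globin-rich cells, and the count lower was 0 without them, at 4-fold and without the cells of code M12. In the roof between stages, the count lower was 4 from raw sums and 1 at 4-fold, and the count higher was 1 with DESeq2 size factors. Under those factors fech and abcb10 had no ratio, because their rescaled levels fell under the CPM of 3 reads, which was not rescaled. That count is therefore set by the procedure. In the floor between stages, the count lower was 1 at 4-fold. With 1 cell left out, the count lower ranged from 0 to 1 in the floor against the roof at 28 hpf from 1 to 2 between stages in the roof and from 3 to 5 in the floor, and the count higher from 7 to 8 and from 2 to 3 in the first 2 of these. The cause of the other shifts was not tested. DESeq2 size factors moved the median log2 ratio of all genes from 0.06 to 0.41 in the floor against the roof at 28 hpf, from -0.34 to -0.55 between stages in the roof and from -0.55 to -0.30 in the floor. In the roof between stages they moved the share of higher among called genes from 39.1% to 27%. TMM factors moved the median from 0.15 to 0.30 and from 0.06 to 0.24 in the floor against the roof at 21 and 28 hpf. The sign of ratios within 1.3-fold changed with the scaling, depth or seed for alas1 in the floor against the roof at 21 hpf, for alad between stages in both regions, and for urod and uros between stages in the floor. Leaving out sets of cells also turned ratios that were within 2-fold, such as fech between stages in the floor (log2 ratio 0.71 without globin-rich cells) and alas1 there (0.03 without code M12). No paired analysis was possible because the labels name no embryos. Roof and floor share no title code at 28 hpf, so differences of region and of code cannot be told apart there. No cell of 21 hpf has such a code, so differences of stage and of code cannot be told apart either. Depth limits ratios with few roof reads. Over the settings other than leaving out 1 cell, the log2 ratio of floor to roof at 21 hpf ranged from 7.21 to 11.08 for alas2, 5.62 to 8.09 for ppox, 4.26 to 7.97 for fech and 5.55 to 11.93 for abcb10, and at 28 hpf from 4.09 to 11.29 for alas2 and 0.16 to 7.38 for ppox. The values 4.09 and 0.16 came from DESeq2 size factors. The level set for no read was not rescaled there, so neither is comparable with the rest, and both count among the 82 that moved.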
